A study of Homo sapiens with 10 samples.

Results

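Folate carries single carbon units between serine, glycine and formate and the syntheses of purines, thymidylate and methionine. Mitochondrial and cytosolic copies of its enzymes run as 2 parallel branches, and serine is the main donor in proliferating cells. MTHFD2L is the less studied mitochondrial relative of MTHFD2, an enzyme known for high levels in embryonic and transformed cells. The 8 genes described here are MTHFD2L, MTHFD2, MTHFD1L, SHMT2 and ALDH1L2, whose products work in mitochondria, and MTHFD1, SHMT1 and TYMS, which complete the cytosolic and nuclear steps. They were found by symbol among the 30809 assembled genes, and all 8 were present. The set was selected on measured values of these same comparisons, with the change of MTHFD2L already known, so its levels and ratios are a description and were not tested.

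Polyadenylated RNA of HEK293 cells, an established human embryonic kidney line, was sequenced in 10 samples that fall into 5 groups of 2. In the siPAP groups the cells had been transfected for 3 days with siRNAs against PAPα and PAPγ, the canonical poly(A) polymerases encoded by PAPOLA and PAPOLG, and total and nuclear RNA were both sequenced. In the LALA group the cells, a stably transfected line made by Flp recombination, carried a genomically integrated, myc-tagged PABPN1, the nuclear poly(A)-binding protein, with the substitutions L119A and L136A under a tetracycline-responsive promoter, and doxycycline had been withdrawn 3 days before harvest. LALA was measured in nuclear RNA only. The controls gave total and nuclear RNA. The sources name them in one place as cells given a control siRNA and in another as the untreated parental line, so the mutant protein, the stable line and the control treatment cannot be told apart in the LALA comparison. The siPAP nuclear and LALA nuclear groups were both set against the same control nuclear libraries. The comparisons ask which polyadenylated RNAs change in level when hyperadenylation in the nucleus is impaired.

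Each value is an FPKM, the fragments of a gene scaled to the length of its exons and to the mapped fragments of the library, given by the deposited table as the mean of a group's 2 libraries. The table holds no value of a single library, and the authors' own test columns were not used, so no SD, interval or test is given and the differences below are not set against replicate error. Read totals per library are not given. A gene counted as measured in a comparison when the higher of both means was at least 1 FPKM and the lower above 0, and as higher or lower when the ratio of the means reached 1.5-fold. PAPOLA was at 79.3 FPKM in control total and 11.0 in siPAP total RNA, and at 61.7, 11.2 and 56.0 FPKM in control, siPAP and LALA nuclear RNA. PAPOLG was 3.35-fold lower in siPAP total and 2.38-fold lower in siPAP nuclear RNA. The locus that holds PABPN1, merged with BCL2L2, was 1.82-fold higher in LALA nuclear RNA. VIM, KRT8 and KRT18, which HEK293 cells express, lay between 164 and 352 FPKM in all groups, whereas NEFM and PAX2, also listed as markers, stayed at or below 0.48 FPKM. PTPRC, CD3E, ALB and PECAM1 stayed at or below 0.09 FPKM, CD68 reached 1.99 and COL3A1 4.85 FPKM. Among RNAs kept in the nucleus, MALAT1 was at 20.4 FPKM in control total and 25.4 in control nuclear RNA, NEAT1 at 65.7 and 54.7, and KCNQ1OT1 at 0.707 and 0.738, so none of these 3 reached 1.5-fold enrichment in the nuclear fraction. The authors state that MALAT1 lacks a poly(A) tail, and KCNQ1OT1 was below 1 FPKM, which limits both as markers here. The nuclear over total ratio in controls was above that of 79.7% of measured genes for MALAT1 and 14.8% for NEAT1. The authors report that cytoplasmic contamination of the nuclear fraction was low. Comparisons between the fractions are limited by the lack of a marker enriched 1.5-fold.

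The sequences below are shown because they mark the first exon-intron boundary of the gene that differed most and of 2 relatives, and the first AATAAA in the first intron of MTHFD2L. AATAAA is a hexamer that the cleavage and polyadenylation machinery recognises. Base pairing of U1 snRNA with the start of an intron is known to keep nearby signals from being used. The bases were read from the hg19 sequence (GRCh37) at the canonical GENCODE transcripts, 5′ to 3′ on the strand of the gene. The capitals mark the first 6 bases of the intron in the junctions, and the hexamer in the last line. The MTHFD2L lines lie at chr4:75023984-75024013 and chr4:75024346-75024375 on the plus strand, the MTHFD2 junction at chr2:74425855-74425884 on the plus strand and the ALDH1L2 junction at chr12:105478152-105478181 on the minus strand.
MTHFD2L exon 1 to intron 1: gagcagcggtgtgagGTACGAgggctgcgg
MTHFD2 exon 1 to intron 1: cctcgcggcagttcgGTAAGAgggtcacag
ALDH1L2 exon 1 to intron 1: ttctccactggccggGTGAGTccggcccgg
MTHFD2L first intronic hexamer: tagtgtttcgtaAATAAAggagtaggcgtt

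MTHFD2L had 6 matches among the 9 bases compared with the donor sequence that pairs with U1 in full, CAG in the exon and GTAAGT in the intron. MTHFD2 had 6 matches as well and ALDH1L2 had 7. Of the first introns of 18747 canonical protein-coding transcripts, 82.3% had at least 6 matches and 44.2% at least 7. The first AATAAA of MTHFD2L, searched on the strand of the gene only, began at base 360 of the intron, and 16 were found in its 16224 bases. In 11609 first introns of at least 2000 bases, 58.5% held AATAAA within the first 2000. The median count in these 2000 bases was 1, and MTHFD2L held 1 and ALDH1L2 3. In 7.36% of these introns the first one lay nearer to the start of the intron than in MTHFD2L. ALDH1L2 had its first AATAAA at base 766, nearer than which 21.5% of these introns had theirs. In MTHFD1, MTHFD2, SHMT1 and MTHFD1L the first lay between base 4336 and base 5928. The shorter first introns of SHMT2 and TYMS held none. The related hexamer ATTAAA was searched as well. MTHFD1 held 2 of these in the first 2000 bases, the first at base 1533. MTHFD2L held 0 there, with its first at base 3687. The first ATTAAA lay at base 2201 in MTHFD2, 2533 in ALDH1L2, 3763 in MTHFD1L and 5695 in SHMT1. A match is a description of the letters and not a site in use. The deposited values are sums over whole genes, so they do not tell a full-length mRNA from a shorter RNA of the same locus. The authors count MTHFD2L among their high-confidence targets of nuclear RNA decay, which their own test called upregulated in all 3 treatment comparisons. From their read traces, they report raised coverage toward the start of MTHFD2L. They describe it as a gene whose RNA appears to end early, which was not tested here.

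**Figure D1:**
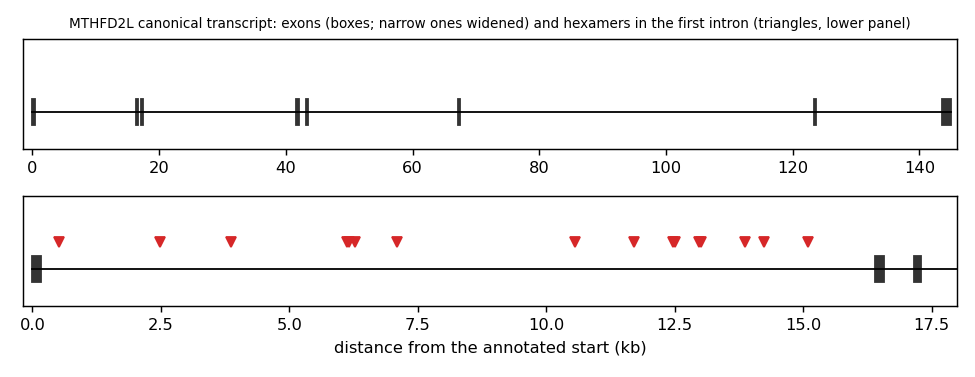
The canonical MTHFD2L transcript is drawn by distance from its annotated start in kilobases, whole in the upper panel and with its first part enlarged in the lower one, with boxes for exons and triangles for the AATAAA hexamers on the strand of the gene in the first intron. The first intron takes up 16224 bases and its first AATAAA lies 523 bases from the start, close to the first exon.

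MTHFD2L, which encodes a mitochondrial methylenetetrahydrofolate dehydrogenase and cyclohydrolase, was the only one of the 8 genes at least 1.5-fold higher in any of the treated groups, and it was so in all 3. Its assembled locus spans chr4:75023599-75168814 on hg19. Its level was 3.96 FPKM in control total, 10.1 in siPAP total, 4.13 in control nuclear, 12.3 in siPAP nuclear and 10.7 in nuclear LALA RNA. The 3 treated means lay above both control means, and the control means differed little from each other. After PAP knockdown it was 2.55-fold higher in total and 2.97-fold higher in nuclear RNA, and with LALA it was 2.58-fold higher in nuclear RNA. Of all measured genes, 9.55% were at least 1.5-fold higher after PAP knockdown in total RNA, 11.3% after PAP knockdown in nuclear RNA and 11.5% with LALA, and these contrasts were those on which MTHFD2L had been selected. The ratio of MTHFD2L was above that of 96.7% of the 13318 genes measured in the siPAP total comparison, 96.5% of the 13636 in siPAP nuclear, and 94.4% of the 13880 with LALA. The median log2 ratio of all measured genes was -0.06, -0.09 and -0.16 in these comparisons, and relative to it MTHFD2L was higher by 1.41, 1.66 and 1.53 on the log2 scale. In this bulk RNA, a difference in the number of cells that hold a transcript and a difference in its level per cell cannot be told apart. LALA nuclear RNA held 0.870 times the MTHFD2L level of siPAP nuclear RNA.

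MTHFD2, the paralogue that catalyses the same mitochondrial steps, did not share that pattern. It was at 90.1 FPKM in control total, 91.5 in siPAP total, 68.7 in control nuclear, 74.0 in siPAP nuclear and 65.2 in nuclear LALA RNA. Its treated and control means lay close together within each fraction, and both total means were above all 3 nuclear means. Its log2 ratios were 0.02 and 0.11 after PAP knockdown in total and nuclear RNA and -0.08 with LALA, the last of which became 0.08 relative to the median of all genes. MTHFD2 was thus the more abundant of the pair per exon length in every group, by 22.7-fold in control total, 16.7-fold in control nuclear, 9.07-fold in siPAP total RNA, 6.03-fold in siPAP nuclear RNA and 6.11-fold in nuclear LALA RNA. As a share of the summed FPKM of both genes, MTHFD2L made up 4.21% in control total and 9.93% in siPAP total RNA. It made up 5.67% in control nuclear, 14.2% in siPAP nuclear and 14.1% in nuclear LALA RNA. These shares count any shorter RNA of the MTHFD2L locus together with its full-length mRNA. The sum itself was 94.1 FPKM in control total, 102 in siPAP total, 72.9 in control nuclear, 86.2 in siPAP nuclear and 75.8 in nuclear LALA RNA, so MTHFD2 made up most of the summed level throughout.

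**Figure D2:**
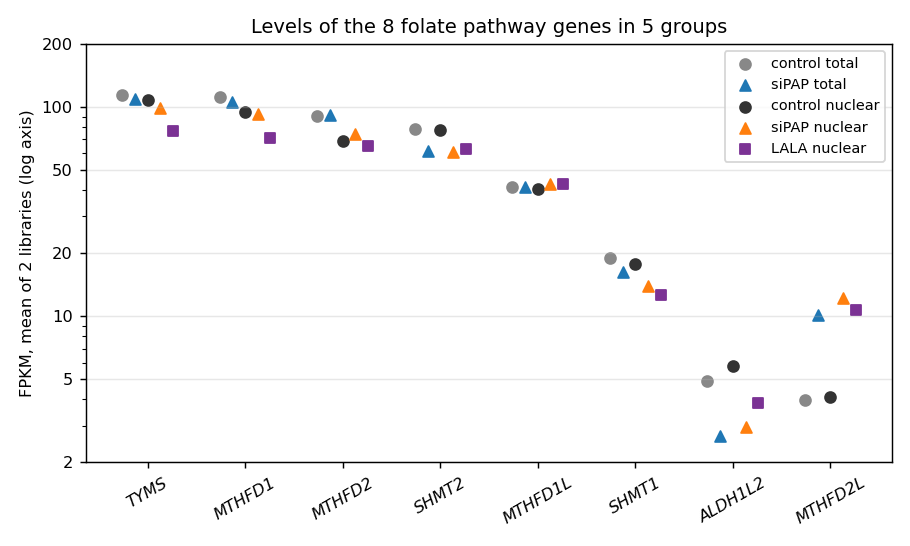
Each point is the mean FPKM of 2 libraries, on a log axis, for the 8 genes in the 5 groups, ordered by their level in control total RNA. MTHFD2L lies at 3.96 and 4.13 FPKM in the control groups and between 10.1 and 12.3 in the treated groups, and ALDH1L2 lies at 4.91 and 5.77 FPKM in the control groups and between 2.67 and 3.86 in the treated groups.

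The remaining mitochondrial genes act on either side of the MTHFD2 step. MTHFD1L, which releases formate from formyltetrahydrofolate, was at 41.4 FPKM in control total, 41.6 in siPAP total, 40.7 in control nuclear, 43.0 in siPAP nuclear and 42.8 in nuclear LALA RNA. Its highest mean was 1.06 times its lowest, the narrowest range of the 8 genes. SHMT2, which moves the carbon of serine onto folate in mitochondria, was at 78.8 FPKM in control total, 61.9 in siPAP total, 77.5 in control nuclear, 60.6 in siPAP nuclear and 62.9 in nuclear LALA RNA. The 3 treated means lay below both control means, with log2 ratios of -0.35, -0.35 and -0.30 that did not reach 1.5-fold. The assembly merged SHMT2 with its neighbour NXPH4 into a single locus, so these values belong to both.

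ALDH1L2, the mitochondrial formyltetrahydrofolate dehydrogenase that yields NADPH and carbon dioxide, had ratios in the opposite direction to those of MTHFD2L. It was at 4.91 FPKM in control total, 2.67 in siPAP total, 5.77 in control nuclear, 2.96 in siPAP nuclear and 3.86 in nuclear LALA RNA. All 3 treated means lay below both control means. The gene was 1.84-fold lower in siPAP total and 1.95-fold lower in siPAP nuclear RNA, and in LALA nuclear RNA it was 1.49-fold lower, just outside the limit of 1.5-fold. No other of the 8 genes was called lower, so the count was 1 of 8 in both siPAP comparisons, where 7.14% of all measured genes were lower in total and 8.18% in nuclear RNA, and 0 of 8 with LALA, where 5.03% were lower. LALA nuclear RNA held 1.30 times the ALDH1L2 level of siPAP nuclear RNA. The order of the 2 lowest genes thereby turned: ALDH1L2 was 1.24 times as abundant as MTHFD2L in control total and 1.40 times in control nuclear RNA, whereas MTHFD2L was 3.79 times as abundant as ALDH1L2 in siPAP total, 4.14 times in siPAP nuclear and 2.76 times in LALA nuclear RNA.

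Of the cytosolic enzymes, MTHFD1, the trifunctional enzyme that interconverts the folate forms of the cytosol, was at 112 FPKM in control total, 106 in siPAP total, 94.6 in control nuclear, 92.4 in siPAP nuclear and 71.3 in nuclear LALA RNA. LALA nuclear RNA held the lowest mean. Its log2 ratio was -0.09 and -0.03 after PAP knockdown in total and nuclear RNA and -0.41 with LALA, and relative to all measured genes the second of these became 0.05 and the third -0.25. SHMT1, the cytosolic serine hydroxymethyltransferase, was at 18.9 FPKM in control total, 16.3 in siPAP total, 17.7 in control nuclear, 13.9 in siPAP nuclear and 12.6 in nuclear LALA RNA, so each treated mean was below both control means. Its log2 ratios were -0.21, -0.35 and -0.49. TYMS, which makes thymidylate from deoxyuridylate and methylenetetrahydrofolate, was at 114 FPKM in control total, 109 in siPAP total, 108 in control nuclear, 98.3 in siPAP nuclear and 77.1 in nuclear LALA RNA. Its mean was lowest in LALA nuclear RNA, with log2 ratios of -0.07, -0.13 and -0.48. In LALA nuclear RNA, SHMT1 and TYMS were lower than the median gene by 0.33 and 0.32 on the log2 scale, and neither they nor MTHFD1 reached 1.5-fold in any comparison.

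The order of the 8 levels was the same in large part in every group. TYMS and MTHFD1 were the most abundant throughout, MTHFD2 and SHMT2 took the third and the fourth places, MTHFD1L the fifth and SHMT1 the sixth. SHMT2 was above MTHFD2 in control nuclear RNA and below it in the other 4 groups. Since no spread between libraries is given, it is unknown which neighbours in this order differ beyond their error, and TYMS and MTHFD1 in control total RNA, at 114 and 112 FPKM, lie close. MTHFD2L ranged over 3.09-fold between its lowest and highest mean, ALDH1L2 over 2.16-fold, and the other 6 genes over 1.06- to 1.57-fold.

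**Figure D3:**
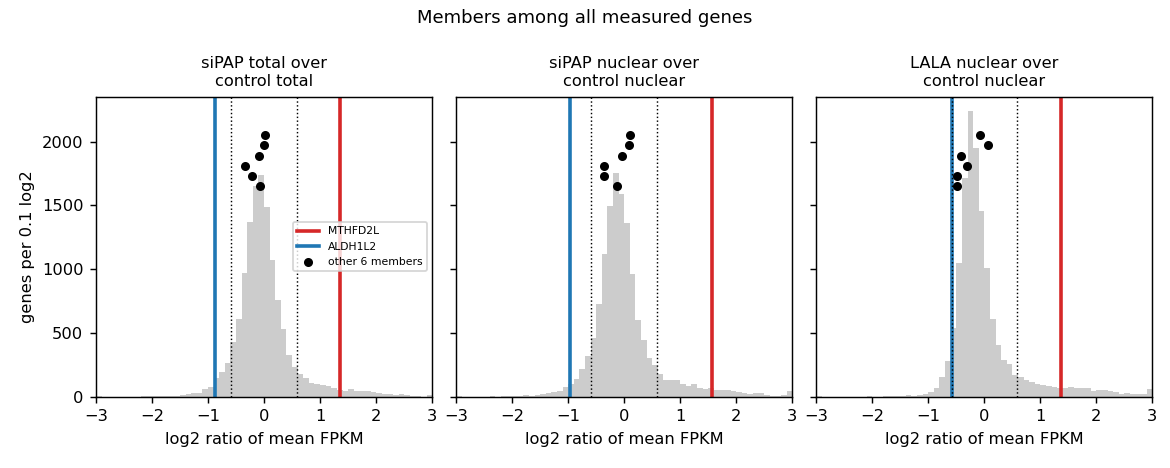
Grey bars count the measured genes by log2 ratio of mean FPKM in steps of 0.1 in the 3 treatment comparisons, with values beyond 3 placed in the end bars, and dotted lines mark 1.5-fold. MTHFD2L (red line) lies at 1.35, 1.57 and 1.37, ALDH1L2 (blue line) at -0.88, -0.96 and -0.58, and the other 6 genes (black points, whose height carries no value) lie inside the dotted lines.

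Over the 8 genes the median log2 ratio was -0.08 in both siPAP comparisons and -0.35 with LALA, beside -0.06, -0.09 and -0.16 over all measured genes. Between fractions, MTHFD2L was 1.04-fold higher in control nuclear than control total RNA and 1.21-fold higher in siPAP nuclear than siPAP total RNA. The widest differences between the control fractions were in MTHFD2, 1.31-fold lower in nuclear RNA, MTHFD1, 1.18-fold lower, and ALDH1L2, 1.17-fold higher. None of the 8 genes reached 1.5-fold in control nuclear over control total RNA, where 8.57% of all measured genes were higher and 1.64% lower, or in siPAP nuclear over siPAP total RNA, where 4.86% were higher and 1.40% lower.

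Another 26 genes of folate and one-carbon metabolism gave the setting of the pathway, and 23 of them were measured in each treatment comparison. FTCD, ALDH1L1 and DMGDH stayed below 1 FPKM. None of the 23 was at least 1.5-fold higher in any of the 3 treatment comparisons, while 4 were lower in siPAP total RNA, 3 in siPAP nuclear RNA and 3 with LALA. Among all measured genes 7.14%, 8.18% and 5.03% were lower and 9.55%, 11.3% and 11.5% higher in the same comparisons. The median log2 ratio of the 23 was -0.19, -0.22 and -0.26, beside -0.06, -0.09 and -0.16 over all measured genes. MTHFS, which converts formyltetrahydrofolate to the methenyl form and lies in a merged locus, had the highest ratios of the list after PAP knockdown, at 1.28-fold in siPAP total and 1.47-fold in siPAP nuclear RNA. No gene of the list therefore came near the ratios of MTHFD2L.

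PHGDH, the enzyme that opens serine synthesis from glycolysis, and SARDH, a mitochondrial sarcosine dehydrogenase, were lower in all 3 comparisons. PHGDH was at 132 FPKM in control total, 83.7 in siPAP total, 142 in control nuclear, 90.6 in siPAP nuclear and 81.1 in nuclear LALA RNA. SARDH was at 1.45, 0.806, 1.99, 0.763 and 1.17 FPKM in the same order of groups, close to the limit of 1 FPKM. The other serine supply genes, PSAT1, PSPH and SFXN1, did not reach 1.5-fold in any treatment comparison. PSAT1 lies in a locus merged with CEP78, so its values belong to both. Among the genes of uptake and storage, FOLR1, which encodes folate receptor alpha, was 1.51-fold lower in siPAP total and 1.95-fold lower in siPAP nuclear RNA, with 6.04 FPKM in control nuclear and 6.42 FPKM in LALA nuclear RNA. SLC19A1, SLC46A1, SLC25A32, FPGS and GGH, which import folate or add and remove its glutamate tail, stayed within 1.5-fold in the treatment comparisons.

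GLDC, the decarboxylase of the glycine cleavage system, was 1.60-fold lower in LALA nuclear RNA, and MTFMT, which formylates the mitochondrial initiator tRNA, was 1.67-fold lower in siPAP total RNA. The purine synthesis enzymes GART and ATIC and the methyl branch genes MTR and MTRR did not reach 1.5-fold in these comparisons. Between control fractions, FOLR1, SLC19A1, GGH and GLDC were 1.52- to 2.03-fold higher in nuclear RNA and none of the 23 measured genes was lower, where 8.57% of all measured genes were higher and 1.64% lower.

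**Figure D4:**
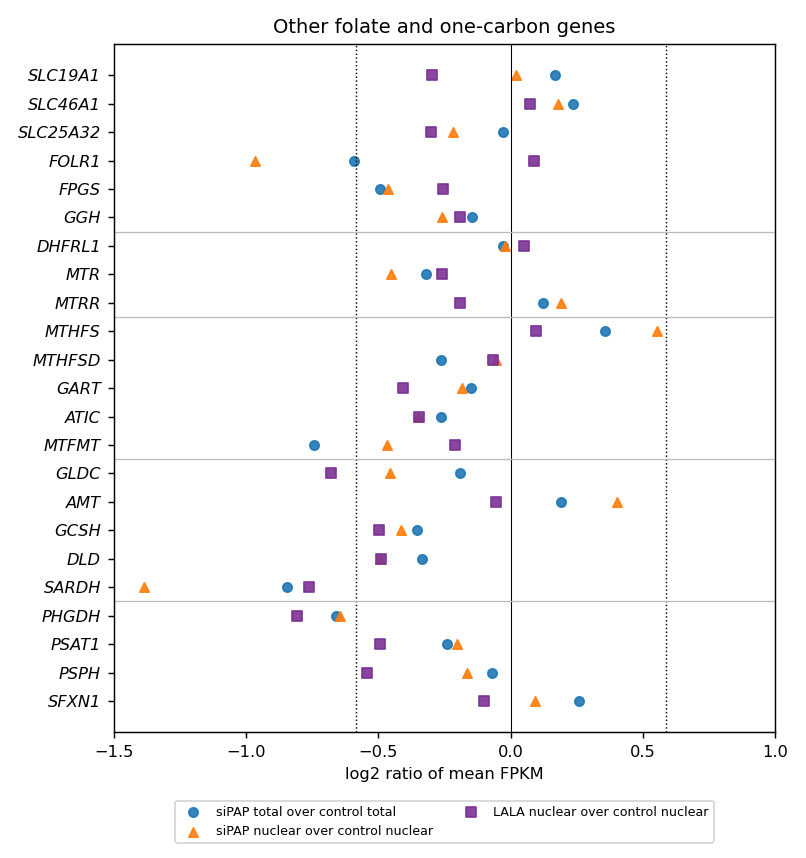
The log2 ratio of mean FPKM is drawn for the 23 measured genes outside the set of 8, with a symbol for each of the 3 treatment comparisons, dotted lines at 1.5-fold and grey lines between the 5 lists (uptake and storage, reduction and methyl branch, formyl and formimino groups, glycine cleavage and folate-linked oxidation, serine supply). No symbol passes the right dotted line, and PHGDH and SARDH lie left of the other one in all 3 comparisons.

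The transcription factor ATF4, which is known to drive several mitochondrial folate and serine synthesis genes, was at 229 FPKM in control total, 250 in siPAP total, 192 in control nuclear, 233 in siPAP nuclear and 243 in nuclear LALA RNA. Its ratios of 1.09-, 1.21- and 1.26-fold stayed below 1.5-fold. Relative to the median of all measured genes they were 0.18, 0.36 and 0.50 on the log2 scale. The protein and the activity of ATF4 were not measured.

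Around the assembled spans of the 8 genes, 14 other assembled loci overlapped or lay within 10 kb, and 8 of them reached 1 FPKM in some group. The assembly gives some neighbouring genes a shared span, as for TYMS with CLUL1, C18orf56 and ENOSF1. A listed locus can therefore lie farther than 10 kb from the member gene itself. The only such locus beside MTHFD2L was EPGN, a growth factor gene that stayed at or below 0.076 FPKM. Beside TYMS, the locus named C18orf56 was at 3.27 FPKM in control total, 5.22 in siPAP total, 3.76 in control nuclear, 7.93 in siPAP nuclear and 5.30 in nuclear LALA RNA. It was 1.60-fold higher in siPAP total and 2.11-fold higher in siPAP nuclear RNA, while TYMS had the log2 ratios of -0.07 and -0.13 given above. ENOSF1, which overlaps TYMS on the opposite strand, was at 13.8 FPKM in control total, 10.3 in siPAP total, 12.7 in control nuclear, 10.2 in siPAP nuclear and 11.5 in nuclear LALA RNA. The libraries kept the strand of the RNA, but the sources used here do not say whether the counting used it, so reads of such overlapping pairs may not be separated. No other neighbour with at least 1 FPKM reached 1.5-fold in a treatment comparison.

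The genes whose pattern over the 5 groups lay nearest to that of MTHFD2L were sought among 11752 genes with a single symbol and a mean of at least 1 FPKM, by the Euclidean distance between log2 levels centred on the mean of each gene. The nearest was GLS2, a mitochondrial glutaminase, at a distance of 0.0736, with 0.564 FPKM in control total, 1.41 in siPAP total, 0.595 in control nuclear, 1.67 in siPAP nuclear and 1.55 in nuclear LALA RNA. GLS2 was below 1 FPKM in both control groups, so only its treated means brought it to a mean of at least 1 FPKM. SETD5-AS1, an antisense RNA, followed at 0.194, with a level of 15.7 FPKM in control total and 54.9 in siPAP nuclear RNA. Among the nearest were also the antisense RNA ZEB1-AS1 at 0.211 and TRIM52, of the tripartite motif family, at 0.218. Among the other compared genes of the set of 8 only, MTHFD1L was nearest at 1.53 and ALDH1L2 farthest at 2.46. Their ranks were 2629 and 11510 among the 11752 genes. SHMT2, in its merged locus, was not among the genes compared.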

How the data were processed

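The authors made stranded poly(A)-selected libraries, mapped the read pairs with TopHat2, built an hg19-guided assembly with Cufflinks and compared groups with Cuffdiff. Deposited FPKM values are means over the 2 libraries of each group. The deposited table also holds the authors' log2 fold changes, test statistics, p-values and q-values for each pair of groups, and none of these was used. The submitters' processing notes also name edgeR, which the authors applied to annotated lncRNAs only.

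Log2 ratios were computed from the group means with no pseudocount in Python 3.11.15 with pandas 2.3.3 and numpy 2.4.6, and checked on simulated data. A gene counted as measured from 1 FPKM in the higher group, with the other group above 0, and 1.5-fold counted as higher or lower. Of the loci, 769 carry several gene names and were kept. Starts were shifted to count from 1. The named genes were the 8 members, the targeted genes and genes of 5 fixed pathway lists past 1.5-fold in a treatment comparison. Other list genes entered by counts. Also named were loci within 10 kb of the assembled span of a member and the 5 genes nearest to MTHFD2L in pattern. Some genes that fall under these rules are not reported here. The members and lists were chosen with earlier results of these data known. ATF4 and list genes inside 1.5-fold that are named were added after their values were seen. Exons and introns follow canonical transcripts of GENCODE on GRCh37, which is the hg19 build. Alternatives were other pseudocounts, folds, level filters, median centring and leaving out merged loci. With group means only, no test, block or leave-one-out was possible.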

Additional observations from a re-analysis of the deposited data

How the results depend on the processing

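No paired analysis was possible because the table gives group means only, and for the same reason no library could be left out. All 40 log2 ratios of the 8 genes kept their direction with 0.1 or 1 FPKM added to each mean, and 4 changed sign relative to the median of all genes, each within 0.1 of 0 before and after (MTHFD1 in siPAP nuclear RNA, MTHFD2 in LALA nuclear RNA, MTHFD1L and SHMT2 between control fractions). With 1 FPKM added, MTHFD2L had log2 ratios of 1.16 and 1.37 after PAP knockdown in total and nuclear RNA and 1.19 with LALA. Of 80 recomputed counts, 7 moved, all of genes called lower. At a looser limit, a log2 ratio of 0.32, 2 of the 8 genes were lower in siPAP total RNA, 3 in siPAP nuclear RNA, 4 with LALA and 1 in control nuclear over control total RNA, where 20%, 22.5%, 25.2% and 9.86% of all measured genes were lower in the same order. At 2-fold, 0 were lower in either siPAP comparison. With at least 5 FPKM required, 0 were lower in siPAP total RNA, because ALDH1L2 then fell below the filter. MTHFD2L was called in all 3 comparisons under each of these settings. Of the 5 genes nearest to MTHFD2L, 1 remained with 1 FPKM added, 3 with a mean of at least 5 FPKM and 3 by the largest absolute difference. Depth per library is unknown, which limits the low values of MTHFD2L, ALDH1L2, SARDH and GLS2 most.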
